A study of Bos taurus with 17 samples.

Results

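The expanded cumulus of adult cows was compared with the compact cumulus of adult cows over 11 of the 17 arrays of the series. The 5 arrays of the expanded state (C2) carried RNA of cumulus cells taken from around metaphase II oocytes that had matured in vivo, and the 6 arrays of the compact state (C1) carried RNA of cumulus cells from around prophase I oocytes. C1 complexes came post mortem from the small follicles of 6 adult cows of various ages, with no hormone treatment stated. C2 complexes came by ovum pick up from the large follicles of 5 Holstein cows aged 3 to 5 years, cycling and not lactating, which had received a superovulation treatment with progestagen implants, an FSH/LH preparation and prostaglandin. The labels name no genotype, and the breed of the C1 cows is not given. Follicle size, hormone treatment and way of collection changed together with the state of the cumulus and cannot be told apart from it. The members were chosen by their labels alone, and the 6 arrays of calf cumulus (NC1) entered only the estimate of the spread and the filter on dim probes. In these bulk samples, fewer cells of a type and less RNA per cell cannot be told apart.

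Cumulus cells are the granulosa-derived cells that enclose the oocyte of the antral follicle. In the compact state they divide, respond to FSH, form gap junctions with the oocyte and supply it with the cyclic GMP that keeps it in meiotic arrest. After the preovulatory gonadotropin surge, EGF-like ligands and prostaglandins of the follicle lead them to secrete hyaluronan, which TNFAIP6 and PTX3 cross-link into the soft matrix that pushes the cells apart, and the oocyte resumes meiosis.

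Levels are given as log2 of the background-corrected signal minus the median of the array, so that 0 is the median probe of an array and a step of 1 is a 2-fold difference. A difference is the mean of the 5 C2 arrays minus the mean of the 6 C1 arrays, with the SE of the limma fit and the p adjusted over 13865 probes. A probe was called higher or lower at C2 when this adjusted p was under 0.01, and "rose" and "fell" are used in that sense only. Values on the C2 arrays are listed from replicate 1 to replicate 5, and those on the C1 arrays by their lowest and highest value and their median. The numbers of C1 and C2 samples equal the numbers of cows that the methods name for each state. The p-values measure the spread between samples within a group, pooled over the C1, C2 and calf arrays.

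The C1 arrays resembled each other more than the C2 arrays did. The SD of the log2 difference between 2 arrays was 0.453 to 0.756 within C1, while within C2 it was 0.444 between replicates 1 and 5, 0.512 between replicates 3 and 4, and 1.05 to 1.27 for all other pairs, close to the 1.20 to 1.58 between C1 and C2 arrays. The SD over the arrays was larger at C2 than at C1 for 76.1% of the probes. Between 73.6% and 82.8% of the probes were well above background on a C1 array and between 72.4% and 81.3% on a C2 array. The C2 arrays thus held 2 close pairs, and counts without each pair are given for the totals and for several lists. Replicates 1, 2 and 5 were scanned on the first day and replicates 3 and 4 on the second, and each C2 array lay on a slide of its own among the C2 arrays. The labels do not say whether the close arrays share a cow or a collection, and the p-values treat the 5 C2 samples as independent.

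Of the 14 granulosa and cumulus markers on the array, 13 were well above background on every C1 array and 13 on every C2 array. The exceptions were AMHR2, an AMH receptor, on 3 of the 5 C2 arrays, and KITLG, described with the probes detected in 1 state, on 3 of the 6 C1 arrays. Of the 12 tested markers of this list, 7 fell and none rose. The summed linear signal of all 14, in units of the array median, ranged from 6001 to 9606 at C1 and from 2489 to 8719 at C2. It was lowest on C2 replicates 5 (2489) and 1 (2742), while on replicates 3 (8110) and 4 (8719) it lay within the C1 range. A linear sum weighs the brightest markers most, and INHBA and INHA, the inhibin and activin subunits, were among these and showed the split. Not all markers shared it: FSHR, FOXL2 and HSD17B1 were below all C1 arrays on all 5 C2 arrays. INHBA was 10.26 to 10.79 (median 10.69) at C1 and 7.59, 9.69, 10.65, 10.81 and 6.94 at C2, so that replicates 1 and 5 stood below all C1 arrays (difference -1.49 (SE 0.55, adjusted p = 0.0378), past the threshold without C2 replicate 4, at -1.91). INHA was 9.41, 10.63, 10.95, 10.91 and 9.58 at C2 against 10.25 to 10.82 (median 10.61) at C1 and was not called.

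Markers of other cell types also moved between arrays. Their sums likewise cover all markers of a list on the array, tested or not. The oocyte genes ZP2, MOS and ZAR1 were well above background on C1 replicates 1, 2, 4 and 5 and on no C2 array, with ZP2 at 1.17, 2.91, 0.34 and 0.25 on those 4 arrays, -6.93 and -5.92 on C1 replicates 3 and 6, and -6.41 to -5.38 at C2. Other oocyte genes, among them ZP3 and H1-8, were well above background on all 6 C1 arrays. Of the 14 oocyte markers on the array, 4 (GDF9, NLRP5, NOBOX and ZP3) were well above background on all 5 C2 arrays too. None of the 4 tested oocyte markers was called. Of the leukocyte markers, 6 of 16 tested rose (S100A8, CD53, LAPTM5, LYZ, CD14 and TYROBP). Markers not detected at C1 could not be tested. Of these, CD3E and CD8A were well above background on 4 of the 5 C2 arrays, S100A9 on all 5 and ITGAM on 1. The summed signal of all 23 on the array was 35.8 to 60 at C1 and 96.5, 30.5, 118, 120 and 128 at C2, with C2 replicate 2 below every C1 array. With C2 replicate 2 left out, 10 leukocyte markers rose. LAPTM5 lost its call without any of C1 replicates 2, 3, 4 and 6 and C2 replicates 1, 3, 4 and 5 (adjusted p up to 0.0217), and TYROBP without C1 replicates 1, 2, 3 or 6 or C2 replicates 1 or 5 (up to 0.0237). The general leukocyte gene PTPRC was 0.99, 0.81, 0.99, 1.33 and 1.77 at C2 against -0.21 to 1.02 (median 0.52) at C1 and was not called. The epithelial markers were split. KRT18 read 10.13, 5.34, 6.92, 6.84 and 8.78 at C2 and CLDN1 8.36, 1.63, 4.07, 4.16 and 7.92, both highest on C2 replicates 1 and 5. The keratin KRT5 read -0.76, -0.71, 7.42, 6.85 and -1.18 at C2 and -0.46 to 0.24 (median -0.13) at C1. In KRT5 only C2 replicates 3 and 4 were thus high, and MUC1, KRT7 and EPCAM did the same. In C2 replicates 1 and 5, by contrast, the smooth muscle gene TAGLN (5.18, 0.36, -0.37, -0.36 and 4.77 over the C2 arrays) and the endothelial gene VWF (2.46, -3.60, -3.13, -2.94 and 1.94) were above all C1 arrays, whose ranges were 1.72 to 2.95 (median 2.04) and -1.86 to -1.02 (median -1.70). The endothelial genes CDH5 and EMCN were not well above background on any of the 11 arrays. Of the 12 endothelial markers on the array, 8 were well above background on every C1 array, among them TEK, TIE1 and CLDN5. On every C2 array 6 were, again with TEK, TIE1 and CLDN5. Of the 8 tested, 1 rose (KDR; sums 3.48 to 5.28 at C1 and 6.27 to 13.2 at C2). Of the theca and stroma markers, 2 of 10 rose (LUM and COL1A1) and 1 fell (MYH11), with sums of 244 to 379 and 336 to 608. Of the epithelial markers, 1 of 10 rose (CLDN1), 2 without C2 replicate 2, and 1 fell (CDH1). The call of CLDN1, by its brighter probe, was lost without any 1 of 9 arrays, with an adjusted p up to 0.025 without C2 replicate 5. With all arrays its other valid probe rose by 3.83 (adjusted p = 0.00106). The epithelial sums were 98.1 to 470 at C1 and 2765, 129, 873, 826 and 1504 at C2. Of the red blood cell markers 1 of 3 fell (HBA), with sums of 89.6 to 282 and 9.81 to 62.6. The part of these cells in the results was not tested.

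**Figure D1:**
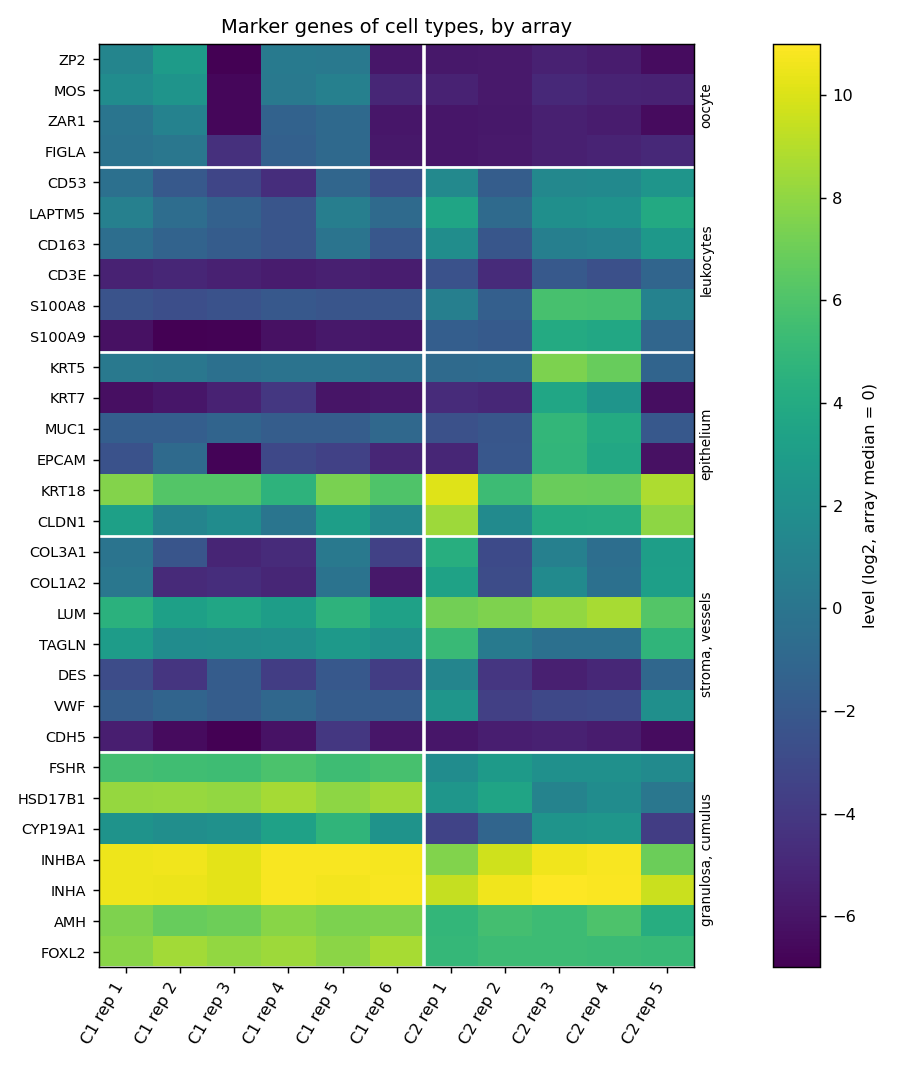
Levels of marker genes of 5 cell types (rows) on the 6 C1 and 5 C2 arrays (columns), in log2 with the array median at 0. The 4 oocyte genes shown are dark on all 5 C2 arrays and on C1 replicates 3 and 6, KRT5, KRT7, MUC1 and EPCAM are bright on C2 replicates 3 and 4, and FSHR and HSD17B1 are lower on all 5 C2 arrays than on the 6 C1 arrays.

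Over all named genes, rises outnumbered falls with arrays scaled by their median, but not by their 75th percentile (1666 higher and 1827 lower) or by quantiles (1726 and 1811). Of 10352 named genes tested, 1646 were higher at C2 (15.9%) and 1256 lower (12.1%), 28.0% in all (over all 13865 probes 15.3% were higher and 12.8% lower, 28.1% in all), and the median difference over all of them was 0.06. The rising genes had a median difference of 1.34, with 209 above 8-fold and 33 above 32-fold. The falling genes had a median difference of -1.45, with 134 and 24 beyond the same sizes. The 5 C2 arrays did not overlap the 6 C1 arrays for 1078 of the rising and 1001 of the falling genes, against 21.3% of all genes tested. When the arrays of each scan day were compared alone, 552 of the 2117 rising probes were called on the first day and 1601 on the second. Of the 1775 falling probes 721 and 1129 were. The only C2 arrays of the second day were replicates 3 and 4, a close pair that may not be independent. Without C2 replicates 3 and 4 the genes numbered 1213 higher and 1311 lower, without C2 replicates 1 and 5 they numbered 1643 and 1375, and with C1 replicates 3 and 6, on which ZP2, MOS and ZAR1 were not well above background, as the only C1 arrays they numbered 515 and 563.

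**Figure D2:**
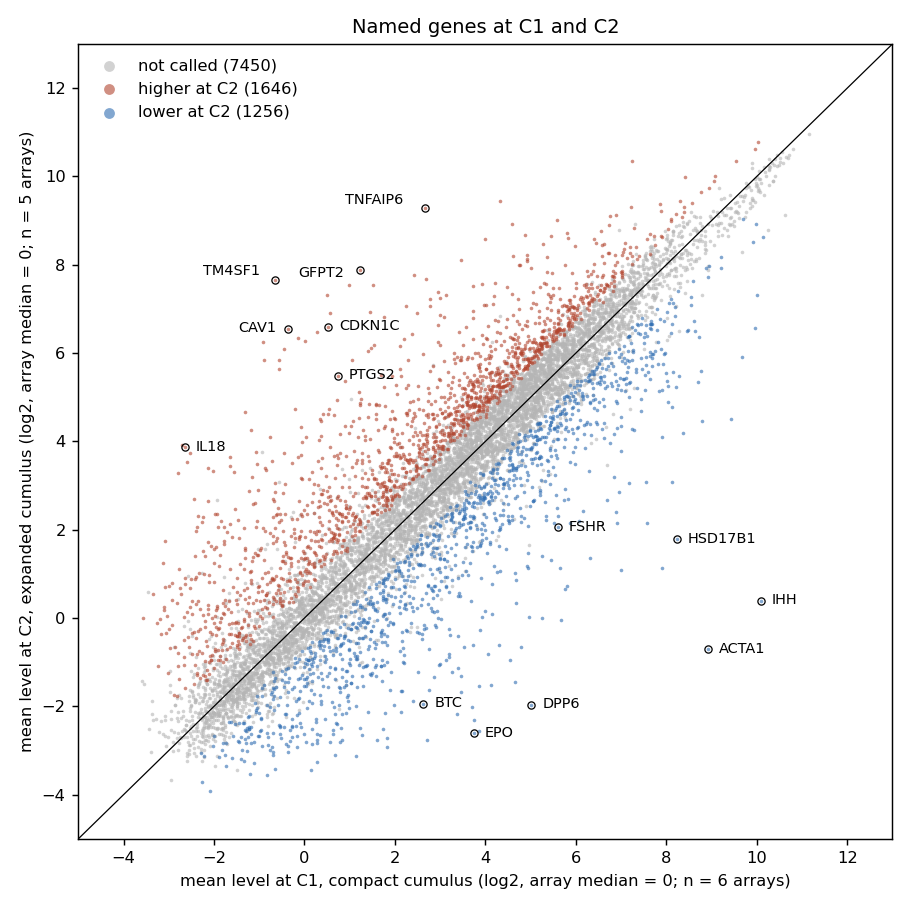
Mean level of each of the 10352 named genes at C1 (x axis, 6 arrays) and at C2 (y axis, 5 arrays), in log2 with the array median at 0, coloured by the call. TNFAIP6, TM4SF1 and IL18 lie far above the line of equal levels, and IHH, ACTA1 and HSD17B1 far below it.

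The 15 largest rises were taken among genes whose C1 and C2 arrays do not overlap. The membrane protein gene TM4SF1, a tetraspanin-like gene, had the largest, from -2.73 to 0.63 (median -0.38) at C1 to 7.01, 5.77, 8.24, 8.96 and 8.27 at C2, a difference of 8.31 (SE 0.64, adjusted p = 1.47e-08). STAT4, a transcription factor downstream of cytokine receptors, read 4.97, 6.72, 6.83, 7.02 and 5.74 at C2 and -1.63 to 0.28 (median -1.03) at C1 (7.18 (SE 0.36, adjusted p = 8.21e-11)). CAV1, which builds caveolae, read 5.73, 7.18, 6.77, 6.95 and 6.12 against -1.94 to 0.85 (median 0.17) (6.91 (SE 0.51, adjusted p = 8.36e-09)). In these 3 genes the lowest C2 array stood far above the highest C1 array. Also among the 15 largest were the tight junction gene CLDN11 (6.80), the basement membrane gene NID2 (6.76), the adhesion genes VCAM1 (6.55) and LGALS3 (6.50), the dendritic cell marker CD83 (6.55), the cytokine IL18 (6.51), the peptide neurotensin NTS (6.41), the plasma glycoprotein fetuin AHSG (6.34) and the growth factor IGF2 (6.25). NID2, VCAM1, CD83, IL18, LGALS3 and IGF2 were highest on C2 replicates 1 and 5. IGF2 read 9.27, 5.37, 4.78, 2.92 and 9.01 at C2 and -2.57 to 2.30 (median 0.34) at C1, and its other valid probe did not pass the threshold and had a difference of -0.66 (adjusted p = 0.0189).

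The 15 largest falls were taken in the same way. IHH, the Indian hedgehog ligand by which granulosa cells signal to theca, fell from 9.83 to 10.47 (median 10.06) to 1.28, -1.59, 1.14, -0.19 and 1.31, a difference of -9.71 (SE 0.40, adjusted p = 9.3e-12). ACTA1, an actin of striated muscle, fell from 8.46 to 9.33 (median 8.95) to -0.45, -0.88, 0.33, -1.69 and -0.86 (-9.64 (SE 0.30, adjusted p = 1.53e-13)), and the array does not tell how far its probe also reads other actins. DPP6, a subunit of potassium channels, read -1.59, -1.34, -2.38, -1.97 and -2.52 at C2 against 4.52 to 5.41 (median 5.00) (-6.97 (SE 0.22, adjusted p = 1.53e-13)). No array of either state came near the other state in these 3 genes. The other large falls included HSD17B1, which converts estrone to estradiol (-6.46), the glutamate receptor subunit GSG1L (-6.41), erythropoietin EPO (-6.34), the Notch ligand DLL4 (-6.10), FRMD3 (-6.08), the synaptic gene NRXN2 (-5.92), the secreted Wnt antagonist SFRP4 (-5.72), the carbonic anhydrase CA14 (-5.71), the adenylyl cyclase ADCY1 (-5.64), WFDC1 (-5.56) and the endothelin receptor EDNRA (-5.50). ECRG4 (-6.78) and DLL4 had a wide spread at C2, where DLL4 read -3.43, -1.78, 1.21, 0.94 and -4.23 with C2 replicates 3 and 4 nearest to the C1 range of 4.03 to 5.26 (median 4.59).

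**Figure D3:**
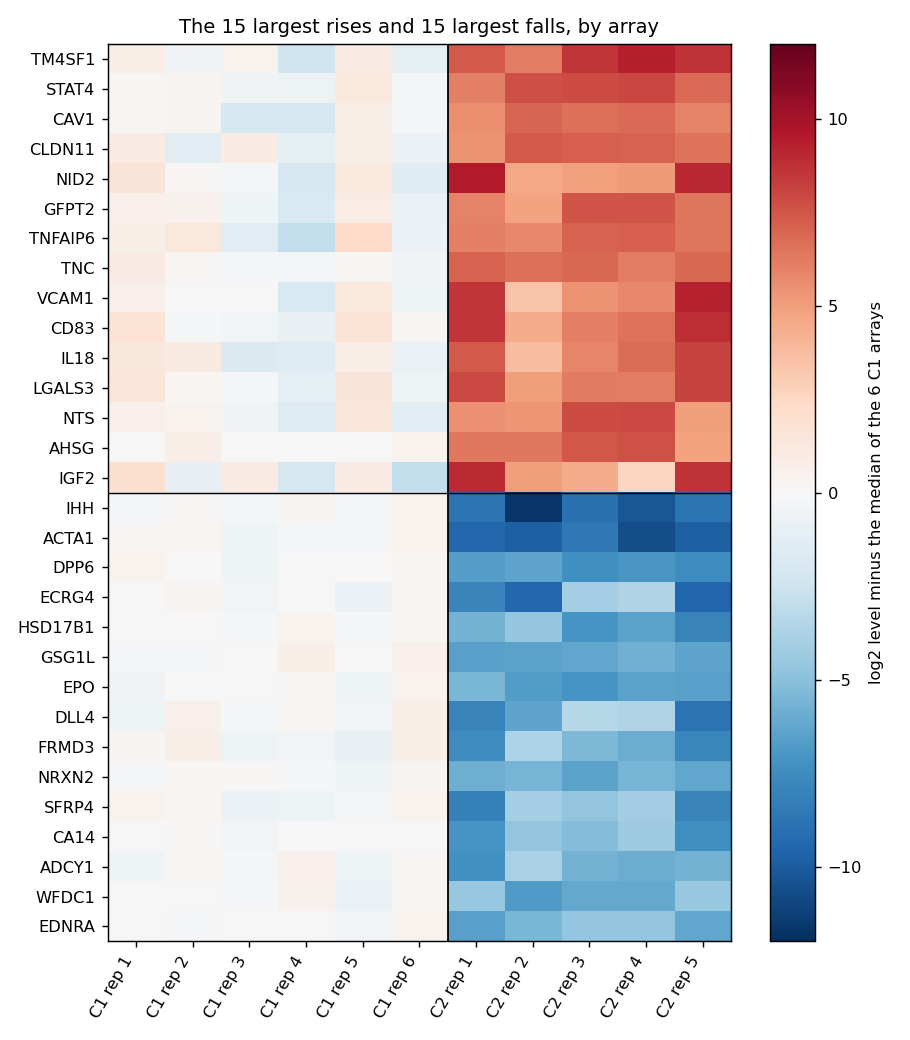
Log2 level of the 15 named genes with the largest rise (top) and the 15 with the largest fall (bottom), each minus the median of its 6 C1 arrays, on the 6 C1 and 5 C2 arrays. The genes were chosen among those whose C1 and C2 arrays do not overlap, and NID2, VCAM1, IGF2, ECRG4 and DLL4 differ between C2 replicates 1 and 5 and C2 replicates 3 and 4.

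The functions were then read through 47 lists that hold 1534 of the tested genes, 442 of them called. For each list the tested members are counted and set beside the 15.9% higher and 12.1% lower over all named genes. Under a test that lets the spreads of C1 and C2 differ, the calls over all named genes numbered 558 higher and 551 lower, and most lists lost calls with them.

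**Figure D4:**
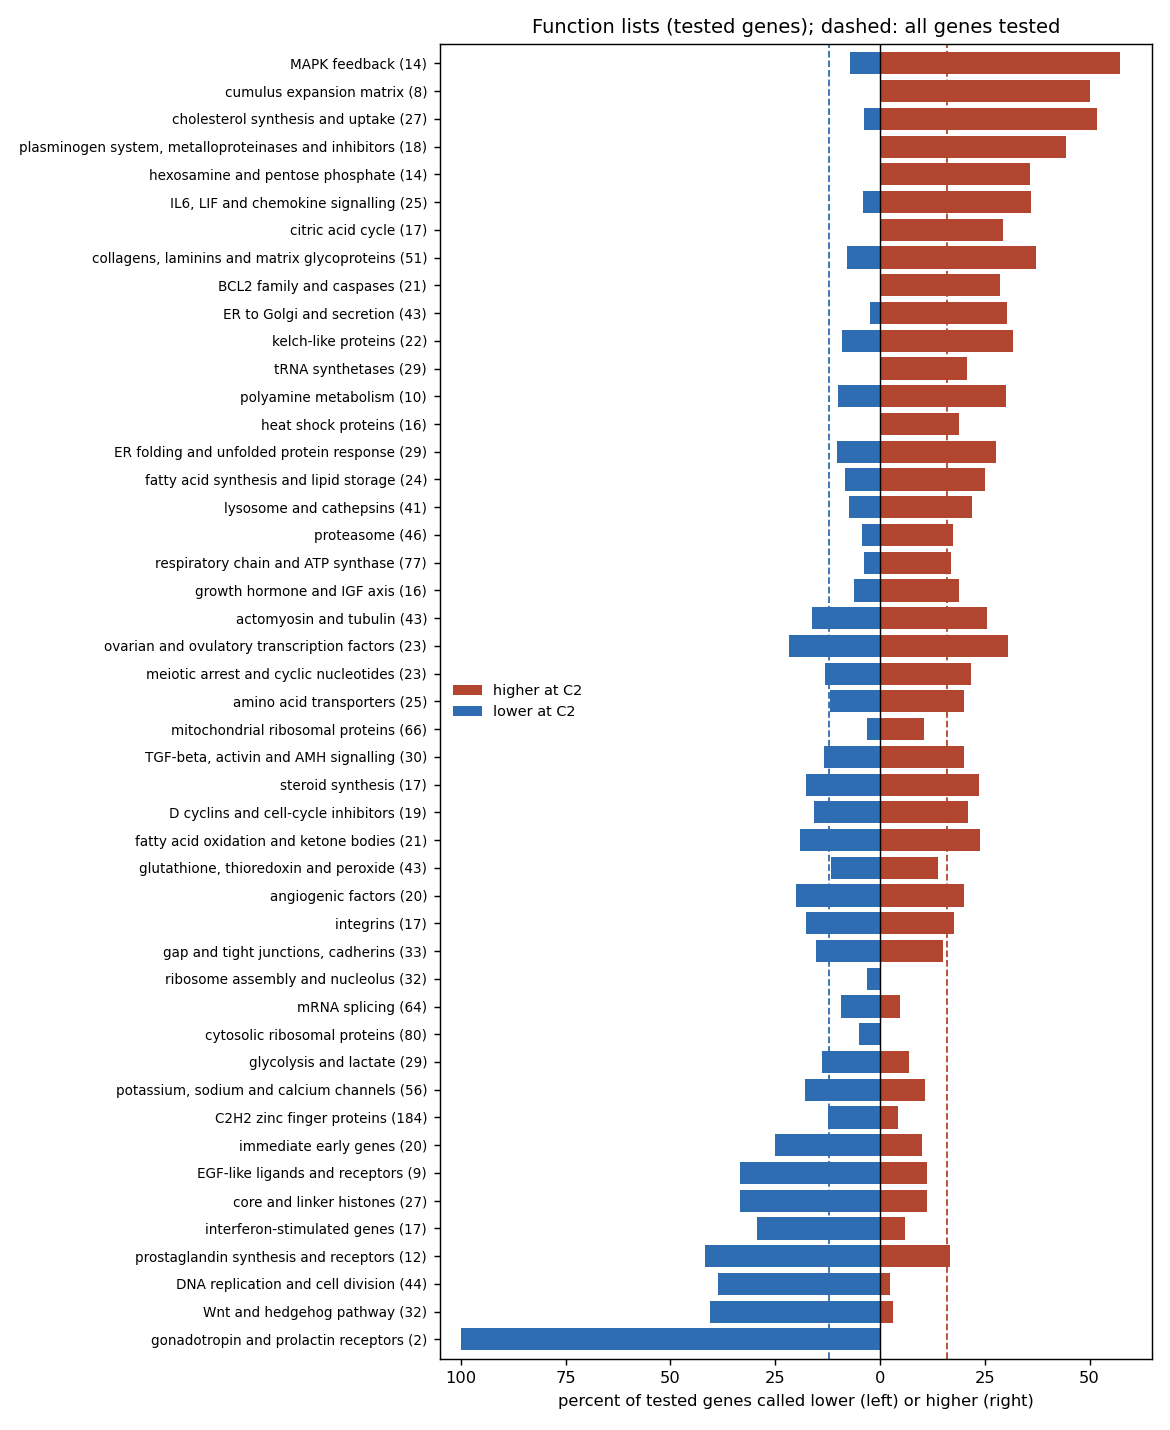
Percent of the tested genes of each of 47 function lists that were called higher (right) or lower (left) at C2, with the number tested in parentheses and the percent over all named genes as dashed lines. MAPK feedback, cholesterol synthesis and the expansion matrix reach furthest to the right. Prostaglandin, Wnt and hedgehog, and DNA replication genes reach furthest to the left, beside the list of gonadotropin and prolactin receptors. Only 2 genes of that list were tested, FSHR and the growth hormone receptor GHR.

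The expansion matrix held rises and no falls. Of 8 tested genes, 4 rose and none fell, with a median difference of 2.20. TNFAIP6, whose product transfers heavy chains to hyaluronan, was 8.83, 8.53, 9.90, 9.96 and 9.24 at C2 and -0.16 to 5.06 (median 2.79) at C1 (6.63 (SE 0.73, adjusted p = 1.11e-06)). PTX3, the pentraxin that anchors them, was 8.80, 6.05, 6.48, 7.28 and 9.73 against -0.31 to 4.43 (median 2.87) (4.98 (SE 0.79, adjusted p = 6.51e-05)). In both genes the highest C1 array lay below the lowest C2 array, but the C1 arrays themselves differed by more than 4 on the log2 scale. The hyaluronan synthase HAS2 (2.46 (SE 0.53, adjusted p = 0.00123)) and the versican-cutting protease ADAMTS1 (3.69 (SE 0.44, adjusted p = 2.58e-06)) also rose and were chosen for mention after their values were seen.

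The wider matrix changed in both directions, with more rises. Of 51 collagens, laminins and matrix glycoproteins, 19 rose and 4 fell. TNC, a glycoprotein of tissues under repair, rose from -3.21 to -1.81 (median -2.80) to 4.26, 3.76, 4.13, 3.38 and 4.05 (6.63 (SE 0.33, adjusted p = 7.42e-11)), and NID2 rose from -2.79 to 0.78 (median -0.80) to 8.72, 3.84, 4.14, 4.28 and 8.29 (6.76 (SE 0.89, adjusted p = 8.56e-06)). The cartilage-type collagens COL9A2 (-3.02 (SE 0.26, adjusted p = 6.64e-08)) and COL11A1 (-3.00 (SE 0.25, adjusted p = 4.6e-08)) fell. LUM, a small proteoglycan that is also a stroma marker, rose by 3.79, while COL3A1 read 4.28, -2.93, 0.82, -0.52 and 3.06 at C2 and -5.16 to 0.29 (median -2.89) at C1, with C2 replicate 2 below the C1 median, and passed the threshold only without that array. Of 18 genes of the plasminogen system, metalloproteinases and their inhibitors, 8 rose and none fell, with a median of 1.76. The collagenase MMP1 read 2.24, 1.86, 4.27, 4.99 and 3.20 at C2 and -1.87 to -1.30 (median -1.51) at C1 (4.86 (SE 0.42, adjusted p = 6.22e-08)). Its inhibitor TIMP1 read 9.74, 7.22, 7.70, 8.37 and 9.91 against 2.52 to 5.27 (median 3.95) (4.59 (SE 0.53, adjusted p = 1.9e-06)). Both stood above every C1 array on all 5 C2 arrays. The integrin subunits were split, with 3 of 17 higher (among them ITGB5, 3.21, and ITGA4, 2.17) and 3 lower (among them ITGA3, -2.48, and 1 without C1 replicate 4 or C2 replicate 4), near the shares over all genes.

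Cell contacts and the cytoskeleton changed gene by gene. Of 33 gap junction, tight junction and cadherin genes, 5 rose and 5 fell. CLDN11 was 6.00, 7.97, 7.75, 7.68 and 7.13 at C2 and -0.80 to 1.60 (median 0.58) at C1, and CDH6 fell from 3.02 to 3.82 (median 3.38) to -0.48, -0.72, -0.12, -0.47 and -0.26 (-3.79 (SE 0.18, adjusted p = 4.64e-11)). CDH3, P-cadherin, fell by 2.09. The main cumulus gap junction gene GJA1 read 8.50, 8.66, 10.22, 10.50 and 8.10 at C2 and 9.19 to 10.38 (median 9.83) at C1, and was not called (-0.56 (SE 0.38, adjusted p = 0.26)). The rises numbered 3 without C1 replicate 2, 3, 4 or 6 or C2 replicate 1 or 5. Of 43 actomyosin and tubulin genes, 11 rose and 7 fell. The caldesmon gene CALD1 (3.76 (SE 0.46, adjusted p = 3.64e-06)) and TAGLN2 (2.92 (SE 0.35, adjusted p = 3.15e-06)) rose, and the tropomyosin TPM1 fell from 7.18 to 8.17 (median 7.57) to 4.00, 2.39, 2.71, 2.57 and 3.73 (-4.48 (SE 0.30, adjusted p = 2.39e-09)).

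Of the signals that start expansion, the prostaglandin genes changed in both directions. Among 12 tested genes 2 rose and 5 fell. The cytosolic phospholipase PLA2G4A, which frees arachidonic acid, read -0.18, 2.39, 0.85, 0.43 and -0.74 at C2 against -3.20 to -2.11 (median -2.77) (3.29 (SE 0.39, adjusted p = 2.89e-06)). PTGS2, the inducible cyclooxygenase, rose from -0.20 to 1.77 (median 0.59) to 4.68, 6.70, 5.53, 5.48 and 5.04 (4.75 (SE 0.47, adjusted p = 2.97e-07)). PTGDS, the prostaglandin D synthase, fell from 7.61 to 8.41 (median 8.01) to 6.01, 4.97, 5.08, 5.01 and 5.77 (-2.65 (SE 0.25, adjusted p = 2.22e-07)). No array of one state reached into the other in these 3 genes. AKR1B1 (-2.81), PTGR1 (-2.03) and the constitutive cyclooxygenase PTGS1 (-1.81) fell too, the last 2 named after their values were seen.

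The EGF family was measured in 9 genes, of which 1 rose and 3 fell. HBEGF, which binds the EGF receptor, rose from 1.26 to 3.07 (median 1.92) to 3.62, 2.68, 4.10, 4.42 and 3.81 (1.71 (SE 0.35, adjusted p = 0.000783)), with C2 replicate 2 inside the C1 range. Betacellulin, BTC, fell from 1.54 to 3.31 (median 2.70) to -2.37, -3.84, -0.18, -0.95 and -2.37 (-4.57 (SE 0.47, adjusted p = 5.57e-07)). The receptor ERBB3 fell by 2.41, but the call was lost without C2 replicate 1 (adjusted p = 0.0118), 2 (0.0115) or 5 (0.0118). Downstream, 8 of 14 genes of MAPK feedback rose and 1 fell, with a median of 1.28. RGS2, which shortens G protein signals, read 5.92, 5.41, 5.55, 6.46 and 6.94 at C2 and -0.10 to 3.17 (median 1.34) at C1 (4.64 (SE 0.43, adjusted p = 1.53e-07)), and TRIB2 fell from 9.44 to 10.41 (median 10.02) to 5.51, 7.57, 7.66, 7.35 and 4.79 (-3.38 (SE 0.43, adjusted p = 5.5e-06)) by both of its probes, with 2 falls in the list without C2 replicate 4. Immediate early genes did not move together: 2 of 20 rose (KLF2, 3.80, and KLF6, 2.17) and 5 fell, among them MYC, which went from 6.39 to 7.42 (median 6.90) to 3.82, -1.26, 2.02, 2.38 and 3.76 (-4.78 (SE 0.62, adjusted p = 7.89e-06)), and KLF10 (-2.22).

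**Figure D5:**
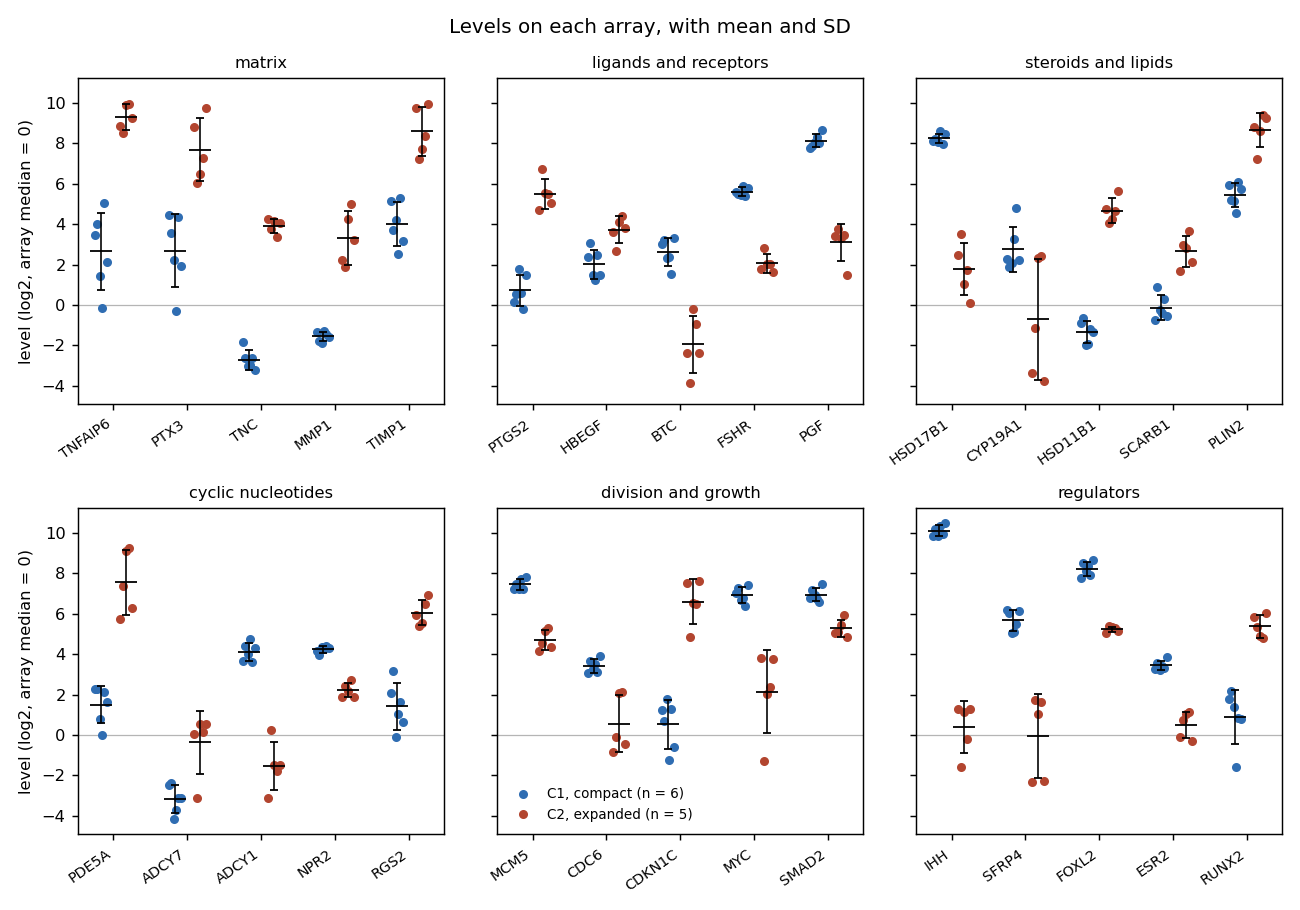
Levels of 30 genes of 6 functions on each C1 array (blue, 6 arrays) and C2 array (red, 5 arrays), in log2 with the array median at 0, with the mean and SD of each state. PTGS2, TNC and PDE5A stand above all C1 arrays on all 5 C2 arrays, FSHR, HSD17B1, NPR2 and IHH below them, and CYP19A1 lies within the C1 range on C2 replicates 3 and 4 only.

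The FSH receptor and an enzyme of estradiol synthesis fell. FSHR, the FSH receptor, went from 5.40 to 5.91 (median 5.55) to 1.76, 2.83, 2.01, 2.04 and 1.62 (-3.55 (SE 0.23, adjusted p = 2.31e-09)). GHR, the growth hormone receptor, fell by 1.20 (adjusted p = 0.00142) by its brighter probe. Its other valid probe changed by -0.96 and was not called (adjusted p = 0.0468). FSHR and GHR were the 2 tested genes of the list of gonadotropin and prolactin receptors. HSD17B1 went from 7.96 to 8.59 (median 8.17) to 2.47, 3.53, 1.06, 1.73 and 0.11 (-6.46 (SE 0.41, adjusted p = 1.34e-09)). The aromatase CYP19A1 read -3.38, -1.15, 2.34, 2.43 and -3.74 at C2 and 1.89 to 4.79 (median 2.23) at C1 (-3.45 (SE 0.95, adjusted p = 0.00704)). Replicates 3 and 4 thus lay in the C1 range and the other 3 C2 arrays below it, and the call was lost without C1 replicate 1, 3, 4, 5 or 6 or C2 replicate 1, 2 or 5 (adjusted p from 0.0101 to 0.0222). HSD11B1, which forms active glucocorticoid, rose from -1.96 to -0.62 (median -1.26) to 4.74, 4.05, 4.24, 4.63 and 5.63 (5.97 (SE 0.38, adjusted p = 1.41e-09)), and the electron donor FDX1 rose by 2.40. Of 17 steroid synthesis genes, 4 rose and 3 fell in all.

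In cholesterol synthesis and uptake rises outnumbered falls, in 14 of 27 genes with a median of 0.84, and 1 fell. The HDL receptor SCARB1 read 1.70, 2.98, 2.83, 3.66 and 2.12 at C2 and -0.74 to 0.87 (median -0.33) at C1 (2.78 (SE 0.33, adjusted p = 2.43e-06)). The synthase HMGCS1, an early step of the pathway, read 9.24, 7.41, 8.99, 8.74 and 8.67 against 5.14 to 6.60 (median 5.83) (2.78 (SE 0.34, adjusted p = 3.96e-06)). Under a test with unequal spreads 3 rose, and with C1 replicates 3 and 6 as the only C1 arrays 4 did. Mevalonate kinase, MVK, was the 1 gene that fell (-1.34 (SE 0.21, adjusted p = 5.79e-05)). The rises numbered 10 without C2 replicates 3 and 4 and 11 without C2 replicates 1 and 5. In lipid storage and synthesis 6 of 24 rose and 2 fell, with the lipid droplet coat PLIN2 at 8.78, 7.23, 8.62, 9.38 and 9.22 against 4.55 to 6.07 (median 5.47) (3.20 (SE 0.36, adjusted p = 1.69e-06)) and LPIN1 at 1.79, while the nuclear receptor PPARG fell by 2.20 and was the only called fall in that list when any of 11 single arrays, among them C2 replicates 3 and 5, was left out. In fatty acid oxidation 5 of 21 rose and 4 fell. The carnitine transferase CPT1A, the entry of fatty acids into mitochondria, rose by 4.13 and BDH1 by 5.35, while ECI1 and DECR1, which act on unsaturated fatty acids, fell by 1.78 and 1.67.

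The genes of meiotic arrest fell at the receptor and rose at a phosphodiesterase. NPR2, the natriuretic peptide receptor that makes cyclic GMP in cumulus cells, went from 3.94 to 4.42 (median 4.28) to 1.90, 2.42, 2.18, 2.73 and 1.87 (-2.02 (SE 0.19, adjusted p = 1.99e-07)). PDE5A, which breaks cyclic GMP down, rose from -0.02 to 2.27 (median 1.87) to 5.74, 7.35, 9.10, 9.25 and 6.29 (6.04 (SE 0.59, adjusted p = 2.87e-07)). Both separated the 2 states on every array. Of the cyclases, ADCY1 fell from 3.61 to 4.74 (median 4.16) to -3.11, 0.25, -1.48, -1.79 and -1.48 and ADCY7 rose by 2.80, with C2 replicate 2 inside the C1 range. Of 23 genes of cyclic nucleotide signalling tested, 5 rose and 3 fell.

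Of the TGF-β, activin and AMH genes, 6 of 30 rose and 4 fell. AMH, the anti-Müllerian hormone of growing follicles, fell from 6.82 to 7.77 (median 7.49) to 4.94, 5.63, 5.35, 5.98 and 4.18 (-2.14 (SE 0.28, adjusted p = 7.11e-06)), and SMAD2, which carries the activin signal, from 6.58 to 7.49 (median 6.83) to 5.06, 5.07, 5.45, 5.92 and 4.83 (-1.67 (SE 0.22, adjusted p = 7.02e-06)). Follistatin, FST, fell by 1.49 by its main probe. ID4, an inhibitor of DNA binding downstream of BMPs, rose by 4.21 (SE 0.37), and the ligand TGFB2 by 3.99. In the IGF axis 3 of 16 rose and 1 fell. IGFBP6 rose by 1.77, while IGFBP2 read -0.70, -2.22, -3.53, -3.23 and -1.09 at C2 and -1.33 to 1.12 (median -0.20) at C1, and its fall was lost without C1 replicate 1, 3 or 5 or C2 replicate 3 or 4 (adjusted p = 0.0116 to 0.0178).

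In the Wnt and hedgehog pathways 13 of 32 tested members fell and 1 rose, with 4 falls and no rise under a test with unequal spreads. Beside the ligand IHH, SFRP4 went from 5.06 to 6.20 (median 5.76) to -2.34, 1.73, 1.05, 1.63 and -2.29 (-5.72 (SE 0.64, adjusted p = 1.36e-06)). The Wnt receptor FZD4 was the 1 riser, at 0.33, 0.04, 1.48, 1.24 and 0.48 against -1.21 to -0.68 (median -1.06) (1.73 (SE 0.25, adjusted p = 2.19e-05)). Falls numbered 9 without C1 replicate 6, and rises 3 without C2 replicate 1 or NC1 replicate 5. Of 20 angiogenic factors 4 rose and 4 fell. The VEGF receptor KDR, also an endothelial marker, read -0.19, 0.98, 3.21, 3.42 and 0.64 at C2 and -2.31 to -1.62 (median -1.90) at C1 (3.58 (SE 0.50, adjusted p = 1.69e-05)), and the ligand ANGPT1 rose by 3.32. Its antagonist ANGPT2 fell by 4.05 and the placental growth factor PGF from 7.78 to 8.65 (median 8.03) to 3.43, 3.77, 3.32, 3.47 and 1.47 (-5.03 (SE 0.32, adjusted p = 1.7e-09)).

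Among 23 transcription factors of the ovary, 7 rose and 5 fell. FOXL2, the factor that maintains granulosa identity, fell from 7.78 to 8.63 (median 8.24) to 5.02, 5.37, 5.32, 5.27 and 5.15 (-2.99 (SE 0.20, adjusted p = 3.56e-09)), by a probe that is named in the array's description only. ESR2, the estrogen receptor of granulosa cells, fell from 3.22 to 3.84 (median 3.37) to -0.08, 0.76, 1.03, 1.12 and -0.31 (-2.93 (SE 0.26, adjusted p = 6.84e-08)). GATA4 fell by 0.78. RUNX2, which is induced before ovulation, rose from -1.56 to 2.17 (median 1.11) to 5.86, 5.34, 4.87, 4.77 and 6.03 (4.47 (SE 0.57, adjusted p = 5.43e-06)), and NR2F1 rose by 2.66. The states did not overlap in any of these 5 genes.

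Of 44 genes of DNA replication and cell division 17 fell, with a median of -1.77, and 1 rose. The helicase subunit MCM5 went from 7.21 to 7.80 (median 7.36) to 4.13, 4.57, 5.13, 5.29 and 4.33 (-2.75 (SE 0.22, adjusted p = 3.11e-08)). CDC6, which loads that helicase, went from 3.04 to 3.92 (median 3.39) to -0.81, -0.10, 2.06, 2.11 and -0.43 (-2.85 (SE 0.46, adjusted p = 7.78e-05)), and here C2 replicates 3 and 4 were the highest of the C2 arrays. Without these 2 arrays 36 of the 44 genes fell, and without C2 replicates 1 and 5 12 did. Under a test with unequal spreads, 3 fell. Left out singly, C2 replicate 4 gave 26. The 1 riser, CCNE2, fell by its other probe. The inhibitor of cyclin-dependent kinases CDKN1C rose from -1.25 to 1.80 (median 0.96) to 7.52, 4.83, 6.55, 6.47 and 7.62 (6.07 (SE 0.55, adjusted p = 1.03e-07)), the antiproliferative gene BTG2 fell by 1.64, and 4 of 19 D cyclins and inhibitors rose and 3 fell. That count of falls was 1 without C2 replicate 5 and 5 without C2 replicate 4. CCND1 rose by 2.44 with all arrays, but not without C1 replicate 3, 4 or 6 or C2 replicate 3 or 4 (adjusted p = 0.0103 to 0.0159). Of 27 histone genes 3 rose and 9 fell, with H2BC19 at 3.54 and H2AC15 at -2.98. Histone genes have near-identical copies, and a probe may read several.

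The machinery of gene expression was covered by lists that differed in their shares. Of 80 cytosolic ribosomal protein genes none rose and 4 fell (5% against 12.1% of all genes), the largest fall being RPL13A with -1.47 (SE 0.23, adjusted p = 5.6e-05). This count was 14 without C2 replicate 4, 15 without C2 replicates 3 and 4, and 22 when arrays were scaled by their 75th percentile. Ribosome assembly had 1 fall in 32 genes, NPM3 (-1.62), with 3 falls without C2 replicate 5 and 3 rises without C2 replicate 2. Splicing had 3 rises and 6 falls in 64, with SRSF2 at -2.25 and HNRNPA1 at -2.01, and its rises numbered 1 without C2 replicate 3 or 4 and 6 without C2 replicate 2. The C2H2 zinc finger genes had 8 rises and 23 falls in 184 (4.35% and 12.5%), with ZNF217 at 2.02 and ZNF391 at -2.46, and 40 falls under the 75th percentile scaling. Among 29 tRNA synthetases 6 rose, led by SARS1 (1.57 (SE 0.21, adjusted p = 8.42e-06)), and none fell, although 1 fell without C2 replicate 1, 4 or 5.

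Of 77 genes of the respiratory chain and ATP synthase 13 rose (16.9%, near the 15.9% of all genes) and 3 fell, led by the complex I subunit NDUFB11, which went from 6.05 to 6.92 (median 6.35) to 8.23, 7.31, 7.64, 8.48 and 8.39 (1.60 (SE 0.23, adjusted p = 1.86e-05)), with NDUFS4 at -1.01 among those that fell. The rises numbered 5 without C2 replicate 4, 21 without C2 replicate 2, 4 without C2 replicates 3 and 4, and 8 without C2 replicates 1 and 5. Of 66 mitochondrial ribosomal proteins 7 rose (10.6%) and 2 fell, with 4 rises without C2 replicate 4 or 5 and 12 without C2 replicate 2, and with 9 rises and 8 falls under the 75th percentile scaling. MRPS14 rose by 1.30 and MRPL10 fell by 0.97. In the citric acid cycle 5 of 17 rose and none fell. SUCLA2, a subunit of succinyl-CoA ligase, went from 3.27 to 4.12 (median 3.62) to 6.11, 6.42, 7.89, 8.05 and 6.34 (3.24 (SE 0.32, adjusted p = 2.78e-07)), and the cytosolic IDH1 rose by 2.20.

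In sugar metabolism the rises lay mostly in the list of hexosamine and pentose phosphate genes. GFPT2, the first enzyme of the hexosamine branch that feeds hyaluronan, went from -0.43 to 2.30 (median 1.42) to 7.41, 6.28, 8.98, 8.93 and 7.84 (6.66 (SE 0.52, adjusted p = 1.52e-08)). UGP2, which forms UDP-glucose, rose by 1.46, and 5 of 14 genes of this list rose while none fell. These rises numbered 3 when any of 10 single arrays, C2 replicates 3 and 4 among them, was left out. Of 29 glycolysis and lactate genes, 2 rose, the enolase ENO2 (2.98) and the kinase PDK3 (2.29), which holds back pyruvate dehydrogenase. The 4 that fell included ALDOC (-1.98), and their number was 2 without C1 replicate 6 or C2 replicate 3 or 5, and 7 without C2 replicate 1.

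Secretion, folding and degradation had more rises than falls, as did all named genes (15.9% against 12.1%) with arrays scaled by their median. The shares of rises among proteasome (17.4%) and heat shock genes (18.8%) were near that of all genes. Of 43 genes in a joint list of ER to Golgi transport and secretion 13 rose and 1 fell, with a median of 0.55, led by PACSIN3 (2.45) and SNAP25 (1.92 (SE 0.33, adjusted p = 0.000127)). Without C2 replicates 3 and 4, 3 of them rose, and without C2 replicate 4 alone 2 fell. In ER folding 8 of 29 rose and 3 fell, with 3 rises without C2 replicates 3 and 4 and 10 without C2 replicates 1 and 5. The stress sensor ATF6 went from -1.50 to -0.98 (median -1.13) to 0.48, 1.57, 1.18, 1.27 and 0.76 (2.26 (SE 0.20, adjusted p = 8.4e-08)), while PPP1R15A and CHAC1, which are induced by ER stress, fell by 1.72 and 1.38. Of 46 proteasome genes 8 rose and 2 fell, with PSMD6 at 0.92 and the activator PSME1 at -1.45. The other valid probe of PSME1 changed by -0.62 and was not called (adjusted p = 0.30). The proteasome rises numbered 3 without C1 replicate 3 or C2 replicate 4, and 0 without C2 replicates 3 and 4 together. Of 16 heat shock genes 3 rose, DNAJB4 most (1.33), with 6 rises without C1 replicate 6 and 1 without any other of 8 single arrays, such as C2 replicate 3. Of 41 lysosomal genes 9 rose and 3 fell. The cathepsin CTSS, much used by antigen-presenting cells, went from -1.52 to 0.35 (median -0.66) to 3.00, 1.18, 3.47, 3.03 and 3.55 (3.50 (SE 0.44, adjusted p = 5.42e-06)), GUSB rose by 2.52 and CTSO fell by 2.42. The lysosomal falls numbered 1 without C1 replicate 4 or 6 or C2 replicate 2 or 3.

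Rises outnumbered falls among cytokine genes, and falls outnumbered rises among interferon-stimulated genes. Of 25 genes of IL6, LIF and chemokine signalling 9 rose and 1 fell, with a median of 0.99. IL18 went from -4.24 to -1.12 (median -2.50) to 4.89, 1.24, 3.41, 4.20 and 5.62 (6.51 (SE 0.75, adjusted p = 1.78e-06)). The monocyte chemokine CCL2 read 4.61, -1.29, 3.73, 4.62 and 5.52 at C2 and -3.94 to 0.56 (median -2.04) at C1 (5.09 (SE 1.04, adjusted p = 0.000733)), with replicate 2 inside the C1 range, and SOCS1, which dampens cytokine signals, fell by 2.14, with 2 falls in the list without C2 replicate 2 or 3 or NC1 replicate 4. On the same arrays the leukocyte markers were lowest on C2 replicate 2, where CD53 read -1.69 against 1.37 to 2.39 on the other C2 arrays and -4.65 to -0.34 (median -2.32) at C1, and their part in these rises was not tested. Of 17 interferon-stimulated genes 1 rose (IFIT5, 1.17) and 5 fell, with MX1 at -2.13 and IRF1 at -1.87, and 2 rose without C2 replicate 1, 2 or 5. Of 21 genes of the BCL2 family and caspases, 6 rose and none fell, among them BOK (3.42) and CYCS, cytochrome c (3.29 (SE 0.37, adjusted p = 1.54e-06)), and 1 fell without C2 replicate 2, 3 or 4.

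Small molecules and ions complete the account. The catalytic subunit of glutathione synthesis GCLC fell from 6.71 to 8.15 (median 7.02) to 2.72, 2.57, 4.11, 4.02 and 1.83 (-4.13 (SE 0.35, adjusted p = 4.89e-08)), and the plasma peroxidase GPX3 fell by 2.00, while the heme oxygenase HMOX2 rose by 2.93. In that list of 43, 6 rose and 5 fell, with 10 rises without C2 replicate 2 and 3 falls without C1 replicate 1, 4 or 6 or C2 replicate 2. Of 25 amino acid transporters 5 rose and 3 fell, with SLC7A8 at 3.03 and SLC6A15 at -3.39. Of 10 polyamine genes 3 rose, among them ARG2 (2.55), and PAOX fell by 0.93, and 5 rose without C2 replicate 2. Of 22 kelch-like genes 7 rose and 2 fell, KLHL3 with 3.31 (SE 0.29, adjusted p = 7.46e-08) and KLHL31 with -3.08 (SE 0.25, adjusted p = 2.35e-08). Of 56 ion channel genes 6 rose and 10 fell. The potassium channels KCNJ8 (-4.33 (SE 0.33, adjusted p = 1.21e-08)) and KCNN1 (-4.25 (SE 0.36, adjusted p = 4.59e-08)) fell and the calcium channel subunit CACNB3 rose by 2.27.

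Some probes were detected in 1 state only. On all 5 C2 arrays and no C1 array, 36 probes were well above background (0.168% of 21475), and on all 6 C1 arrays and no C2 array 97 were (0.452%). Their folds are taken against the lowest signal well above background, or the probe's own where that was higher, on each array of the dim state. For all genes whose folds are given here except DSP, the mean used was that of the probe's own readings. These readings were not well above background, so the folds are ratios to undetected readings and not lower bounds. The brightest named genes of the C2 set were TKDP2, a member of the trophoblast Kunitz family, at 2.87 ± 0.71 (SD, n = 5) and 506-fold above C1, the desmosome gene DSP (1.57 ± 2.03, 170-fold), the angiotensin receptor AGTR1 (1.22 ± 2.11, 119-fold), SLC17A9 (1.10 ± 0.75, 126-fold) and SEMA3E (0.97 ± 1.63, 63.9-fold). DSP, AGTR1 and SEMA3E varied by more than 3 on the log2 scale between the C2 arrays. The brightest of the C1 set were the lysozyme gene LYSB at 2.06 ± 0.51 (SD, n = 6) and 128-fold above C2, the lipoxygenase ALOX15 (1.74 ± 0.59, 177-fold, by a probe named in the description only, while its tested probe changed by -2.37), the sperm gene EQTN (0.65 ± 0.35, 33.9-fold), FSHB, the β subunit of FSH (0.18 ± 0.43, 58.7-fold), and FAM83A (-0.16 ± 0.40, 14.7-fold). All 5 were also well above background on every calf array, while the first 5 C2 genes were on at most 1 of the 6. With C2 replicate 2 left out the C2 set numbered 70 probes, and with C2 replicate 5 left out the C1 set numbered 164. KITLG, the stem cell factor that granulosa cells make for the oocyte, was well above background on 3 of the 6 C1 arrays and on all 5 C2 arrays, where it read 1.13, 0.83, 0.86, 0.00 and 1.85, against -5.16 to -3.43 (median -3.98) at C1, and was not tested for this reason.

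Genes with more than 1 probe show how far a call rests on the sequence measured. Of 452 genes with several valid probes, 52 had every probe called the same way, 125 had only some probes called, 268 had none, and 7 had probes called in both directions: CCNE2, HIP1R, PSMA7, RAB11FIP3, SEC23B, VCL and YRDC. The rising call of HIP1R was lost without any of 11 single arrays (adjusted p up to 0.0264) and that of YRDC without C2 replicate 1 or 5 (up to 0.0123). The probes of 4 of them, chosen because a call by 1 probe enters the counts given here, are shown by their first 30 of 60 bases, 5′ to 3′, as the array design gives them. For all 4 genes the longest run that the 2 whole probes share is 5 or 6 bases, so that each pair reads different stretches.
CCNE2, probe that fell: acacttgacctaaacttctattttcttaag
CCNE2, probe that rose: actgcctgaaatattccattagtatcctta
PSMA7, probe that fell: tgggggcaccttgtgtggctaaccatacac
PSMA7, probe that rose: tgttcgaggaaaagacattgttgttcttgg
SEC23B, probe that fell: ccagtgaatggagagcctttgggcataaac
SEC23B, probe that rose: caagtaattcctgaacttaatcttcattta
VCL, probe that fell: agttaaagcttctttatgacagtcaagtcc
VCL, probe that rose: tccctgaatgctgattagagatatcaccac

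CCNE2, cyclin E2, changed by 0.82 (SE 0.16, adjusted p = 0.000604) with the probe that rose and by -2.04 (SE 0.41, adjusted p = 0.000593) with the one that fell. PSMA7, a proteasome subunit, changed by 1.08 (SE 0.24, adjusted p = 0.00128) and -1.09 (SE 0.19, adjusted p = 0.000212). SEC23B, a coat protein of transport vesicles, changed by 1.47 (SE 0.30, adjusted p = 0.000632) and -1.64 (SE 0.23, adjusted p = 1.61e-05). For these 3 genes, which were named after their values were seen, the direction given by their list holds for 1 probe. VCL, the adhesion protein vinculin, changed by 1.12 (SE 0.23, adjusted p = 0.000674) and -0.98 (SE 0.23, adjusted p = 0.00194).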

How the data were processed

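RNA of cumulus cells from cows and calves was hybridised to Agilent 1-colour bovine oligonucleotide arrays, 1 sample to an array. Per the file headers, the authors deposited spot intensities from Agilent Feature Extraction (version 10.5.1.1 in the submitters' processing notes), background-subtracted and detrended within each array and left unscaled from one array to the next. A second file deposited by the authors holds normalized log2 values of 15256 probes and served as an alternative. For nearly all probes these values equal the mean log2 signal of the probe's spots, shifted by a constant per array. No genome build is given for the probes, so no coordinates are printed.

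The intensities were set to log2, spots of a probe averaged (2 spots for 21465 probes, 6 for 10) without spots marked as outliers, and the median of each array over non-control probes subtracted. Presence required 50% or more of a probe's spots to be well above background. The 13865 of 21475 probes that met this in 80% or more of the C1, of the C2 and of the calf arrays were tested with limma 3.58.1 in R 4.3.3 (lmFit, eBayes) over all 17 arrays, with Benjamini-Hochberg adjustment and a threshold of 0.01. The calf arrays enter the spread and this filter. The fit was first tested on simulated data. An exact 2-sided permutation test of 5 arrays against 6 cannot go below p = 0.00433.

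Names of 16347 probes, covering 14712 genes, came from RefSeq tables of the organism by accession, gene ID or symbol, and otherwise from the array's description. A gene is its valid probe with the highest mean signal over the 11 adult arrays. Named genes are the 15 largest rises and falls without overlap, up to 2 rises and 2 falls per list (or the member with the highest signal), the cell type markers, and the 5 brightest genes detected in each state only. The comparison, the 47 function lists, the 7 marker lists and the rule were chosen with earlier results of these data known. Lists are described by counts and medians, with no set test.

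Group came from the labels. The alternatives covered scaling, background, filter, flagged spots, samples, weights, test, slide, scan day, replicate number and each array left out. Those that leave out several arrays or compare within a scan day were chosen after seeing the data. Each of the 6 slides and both scan days held arrays of several groups. The other steps used statmod 1.5.0 in R, and Python 3.11.15 (scipy 1.17.1, pandas 2.3.3, numpy 2.4.6).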

Additional observations from a re-analysis of the deposited data

Results flagged for a closer look

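Of 358 groups of 5 or 6 arrays looked at over the named genes, 15 (4.19%) held an array far from the others of its state, and chance alone gives about 1 in 20. C2 replicate 2 stood apart in 4 genes, each time on the side of the C1 arrays. ADCY7 was at -3.12 there against 0.03 to 0.55 on the other C2 arrays, CCL2 at -1.29 against 3.73 to 5.52, CD53 at -1.69 against 1.37 to 2.39 and CTSS at 1.18 against 3.00 to 3.55. On C2 replicate 5, PGF was at 1.47 against 3.32 to 3.77.

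The other 10 lay at C1. C1 replicate 6 was high in 5 genes, with LPIN1 at 1.07 against 0.42 to 0.62, MYH11 at 6.11 against 5.37 to 5.63, PACSIN3 at 5.18 against 3.95 to 4.24, SEC23B at 2.89 against 1.80 to 2.18 and SRSF2 at 2.62 against 1.17 to 1.70. C1 replicate 1 was low in GUSB (0.56 against 2.00 to 2.58) and high in HBA (8.01 against 6.18 to 6.60) and IFIT5 (4.01 against 2.93 to 3.30). PPARG was at 6.17 on C1 replicate 5 against 6.62 to 6.88, and RUNX2 at -1.56 on C1 replicate 4 against 0.78 to 2.17. What sets these arrays apart was not tested.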

How the results depend on the processing

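The precision is limited by the 11 arrays and by the spread between C2 arrays. With all arrays 2117 probes were higher and 1775 lower at C2. Of the 179 named genes followed through the alternatives, 69 lost their call under a test with unequal spreads, which gave 760 and 805 probes and 558 and 551 genes. With C1 replicates 3 and 6 as the only C1 arrays, 670 and 823 probes and 515 and 563 genes were called, and within scan day 1, 569 and 792 probes and 407 and 590 genes. In both cases fewer samples entered the fit. Within scan day 2 the probes numbered 2305 and 1761.

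Scaling by the 75th percentile gave 2114 higher and 2514 lower probes, with the median difference of all probes at -0.107 against 0.0201, and quantile normalization gave 2212 and 2464. The other alternatives moved these counts by less than 1.5 times: normexp background correction gave 1633 and 1643, the deposited normalized values 2112 and 1778, the adult arrays alone 1602 and 1438, slide as a block 1849 and 1659, scan day as a term 2198 and 1809, and close C2 arrays averaged 1515 and 1474. Without any filter on dim probes 2406 were higher and 2140 lower.

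C1 and C2 arrays share replicate numbers 1 to 5. The methods collect C1 post mortem in a slaughterhouse and C2 by ovum pick up from farm cows, and name no pairing. The correlations of the deviations of arrays with the same number were 0.135, -0.187, 0.028, -0.216 and 0.252, which alone cannot decide whether samples are paired. The replicate number as a block gave 1740 higher and 1462 lower probes.

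With 1 array left out at a time, higher probes ranged from 1741 (without C1 replicate 3) to 2506 (without C2 replicate 2) and lower probes from 1545 (without C1 replicate 4) to 1809 (without C2 replicate 4). Higher genes ranged from 1328 to 1965 and lower genes from 1086 to 1297. Probes that kept the 2 states apart ranged from 3060 to 4097, those detected at C2 only from 37 to 70 and those at C1 only from 97 to 164. With all arrays these last 3 counts were 2997, 36 and 97, and leaving out an array cannot lower them.

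The differences that changed sign were those of genes not called. Without C2 replicates 3 and 4 the difference of KRT5 was -0.7721, of MUC1 -0.7739 and of TAGLN 1.2237, and within scan day 1, which holds 3 C2 arrays, -0.7597, -0.8150 and 0.8506. Without C2 replicates 1 and 5 GJA1 was at 0.0361, INHA at 0.2384 and VWF at -1.6744, and within scan day 2 GJA1 was at 0.7433, INHA at 0.4267, INHBA at 0.1659 and VWF at -1.7214. TAGLN was at 0.8113 with array weights and ranged from -1.1141 to 0.2749 with single arrays left out, and VWF from -0.3846 to 1.1290. The cause of these changes was not tested.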

Other observations

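Genes that share the start of their symbol were also counted, over families with at least 20 tested genes, and these families were picked for mention after their values were seen. Of 210 solute carriers (SLC) 42 rose and 41 fell, more on both sides than the 15.9% and 12.1% over all genes. Of 55 RING finger genes (RNF), most of them ubiquitin ligases, 12 rose and 2 fell, and of 35 ubiquitin-conjugating enzymes and relatives (UBE) 9 rose and 3 fell. Of 33 tripartite motif genes (TRIM) 2 rose and 7 fell. The sorting nexins (SNX), which act in endosomes, had 8 rises and 1 fall in 21 genes. Of 32 orphan G protein-coupled receptors (GPR) 6 rose and none fell. Of 46 translation initiation factors (EIF) 7 rose and 1 fell, and of 24 centrosomal proteins (CEP) none rose and 1 fell. These counts are a description and no test of a family was made.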
